A study of Mus musculus with 5 samples.

Results

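The natriuretic peptide and secretory granule genes are 8 genes, Nppa, Nppb, Corin, Pam, Furin, Chga, Chgb and Scg2. They were taken by gene symbol from the annotation of a mouse expression array and are measured by 12 of its 25697 probes (8 of 16593 named genes). RNA was taken from microvesicles, which are membrane particles shed by cells, and, as the control, from HL-1 cardiomyocytes themselves. HL-1 is a mouse atrial heart muscle line that keeps dividing in Claycomb medium. The 5 labelled extracts were read on 1-colour Illumina BeadChips: microvesicle RNA (2 arrays), microvesicle DNA to which a poly-T tail was added before labelling (1 array), and RNA of the cells (2 arrays). All came from HL-1 under the same culture conditions, with no treatment named. HL-1 is a single line that descends from an atrial tumour of mice in which the Nppa promoter drove a viral oncogene. The sources used here do not give how the microvesicles were collected, and nothing says that replicates came from separate cultures, so p-values measure only the spread between these arrays, which may be technical.

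Atrial heart muscle cells are also endocrine cells. They store atrial natriuretic peptide, the product of Nppa, in dense granules and release it on stretch, and they make B-type natriuretic peptide from Nppb. Both hormones act on kidney and vessels to lower blood volume and pressure. The precursors are cut by the membrane protease corin and by furin, a protease of the Golgi. Pam encodes the enzyme that amidates peptide ends and is a major membrane protein of atrial granules in the rat. The granins Chga, Chgb and Scg2 are acidic proteins that condense cargo in the granules of endocrine and nerve cells.

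Nppa and Nppb lie side by side, on the same strand of chromosome 4, with 0 other genes of the RefSeq table (GRCm38.p6) between them, and their annotated starts are 14822 bases apart. The 250 bases before each start are shown as background on these neighbours. Whether they bear on the RNA in the microvesicles was not tested. Capitals mark exact matches, on either strand, to short motifs. The TATA box was searched as TATAAA. Sites of GATA factors were searched with the letters AGATAA and, as a second spelling, with the letters TGATAA. Sites of NKX2-5 were searched as TNAAGTG and, for the T-box factors, TCACACCT was used. No matches overlapped in these windows.
Nppa, chr4:148000472-148000721, plus strand: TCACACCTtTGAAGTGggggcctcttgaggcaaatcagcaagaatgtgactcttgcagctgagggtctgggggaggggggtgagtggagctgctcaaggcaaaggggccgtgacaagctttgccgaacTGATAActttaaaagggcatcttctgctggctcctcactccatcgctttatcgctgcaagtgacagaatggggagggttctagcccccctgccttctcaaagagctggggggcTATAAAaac
Nppb, chr4:147985650-147985899, plus strand: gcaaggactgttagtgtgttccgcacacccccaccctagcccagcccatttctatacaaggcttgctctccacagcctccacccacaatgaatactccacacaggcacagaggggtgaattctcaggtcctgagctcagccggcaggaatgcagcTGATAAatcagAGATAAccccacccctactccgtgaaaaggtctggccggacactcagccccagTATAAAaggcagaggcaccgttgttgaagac
The Nppa window held 1 match each to the T-box, NKX2-5, GATA and TATA letters. The Nppb window held 1 match to each GATA spelling, placed close together, and 1 TATA match. Of 32851 such windows in the table, 12.4% held the TATA letters, 16.6% either GATA spelling, 10.1% the NKX2-5 letters and 1.12% the T-box letters. The CArG box, the site of serum response factor, was searched as CCWWWWWWGG, with W for A or T. Neither the Nppa nor the Nppb window held that exact spelling, which 1.47% of windows held. A CArG site that departs from it by a letter would be missed. These matches describe the letters only.

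Signals are mean bead intensities, with 23 to 55 beads behind each of the 12 probes on an array. A probe was called detected where its deposited detection p, the share of negative control probes at or above its signal, was under 0.01. Detected probes numbered 2024 and 5605 on microvesicle RNA arrays 1 and 2 and 4179 and 3629 on the cell arrays. The microvesicle arrays stood apart from each other. Over the tested probes, their normalized log2 values correlated at 0.58 across probes, against 0.99 for the cell arrays. Microvesicle array 1 correlated at 0.79 with each cell array, and microvesicle array 2 at 0.33 with cell array 1 and 0.29 with cell array 2. Microvesicle array 1 shared a chip with both cell arrays, and microvesicle array 2 shared a chip with the DNA array. Results are therefore given for each microvesicle array. Of 8 atrial muscle markers, 7 were detected on both cell arrays, the exception being Gja5, against 13.5% of all probes. Some were weak there, as Myl7 at raw signals of 108 and 84.1 on cell arrays 1 and 2. On microvesicle arrays 1 and 2, 1 and 6 of the 8 were detected, against 7.88% and 21.8% of all probes. No marker of fibroblasts (0 of 8), macrophages (0 of 6) or mast cells (0 of 6) was detected on any RNA array, where 65.5% of all named genes were undetected. Of 8 endothelial markers, 2 were detected on both cell arrays.

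The data showed transcripts of both hormones and of furin in the cells, and no signal above background for Pam or any granin in either RNA source. On each of the 4 RNA arrays 3 of the 12 probes were detected, against 7.88% and 21.8% of all probes on microvesicle arrays 1 and 2 and 16.3% and 14.1% on cell arrays 1 and 2. Of the 12, 4 (33.3%) were detected on at least 1 RNA array, against 29.5% of all probes on the chip, so the share for these genes was near the background. Nppa, Nppb and Furin were on both cell arrays, as were 13.5% of all probes. Nppa and Furin were on both microvesicle arrays (6.21% of all probes) and on all 4 RNA arrays (5.96%). Corin was on microvesicle array 2 alone.

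**Figure D1:**
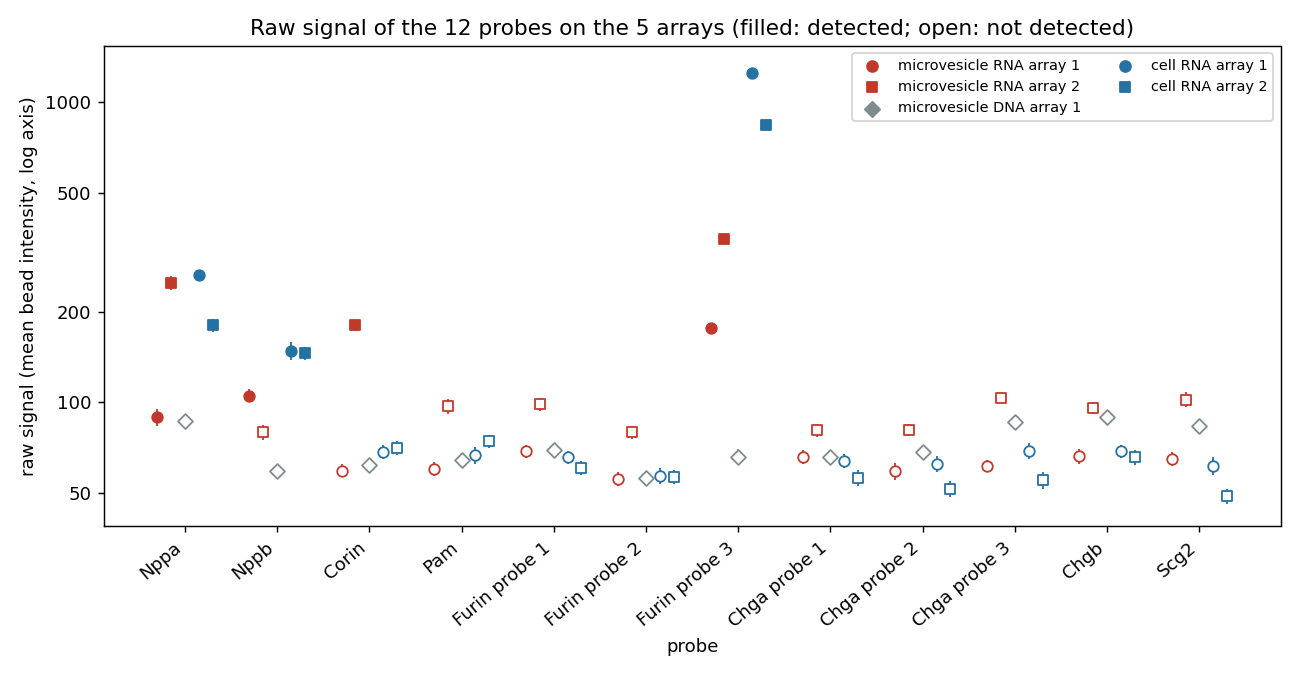
Raw signal (mean bead intensity, log axis) of the 12 probes on the 5 arrays, with bars for the standard error over beads. Filled symbols were detected at a detection p under 0.01 and open symbols were not. Nppa and the third Furin probe are filled on all 4 RNA arrays, Nppb on 3 and Corin on 1.

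Nppa, the atrial natriuretic peptide gene, was detected on all 4 RNA arrays at a detection p under 0.01. On microvesicle array 1 that p was 0.00125, so the call there was lost at a threshold of 0.001. Its raw signal was 89.2 ± 5.57 and 249.9 ± 13.0 (SE over beads) on microvesicle arrays 1 and 2, against 265 ± 11.7 and 181 ± 9.17 on cell arrays 1 and 2. The signal on microvesicle array 1 was 1.45 times that array's background level (the signal at a detection p of 0.5), and on the other 3 RNA arrays it was 2.98 to 4.37 times. Microvesicle array 1 was low and microvesicle array 2 lay within the range of the cells.

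In rank, Nppa stood at nearly the same place on every RNA array. It was above 94.0% and 93.5% of all probes on the microvesicle arrays and above 94.7% and 94.2% on the cell arrays. Quantile normalization, which gives each array the same distribution, therefore set its log2 values close together, at 7.10 and 6.94 in microvesicles against 7.34 and 7.17 in cells. Both microvesicle values lay below both cell values, as did those of 51.6% of tested probes. The mean difference was -0.23 ± 0.33 on the log2 scale (SE, n = 2 arrays per group; limma adjusted p = 0.650), against a median of -0.87 over all tested probes. The difference was smaller than its error.

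This closeness came with the scaling. With median scaling, Nppa differed from the cell mean by -2.01 on microvesicle array 1, while microvesicle array 2 stood at -0.16. With no normalization it stood at -2.07 and 0.06. The mean over both arrays was then -1.08 ± 0.74 (limma adjusted p = 0.311) and -1.01 ± 0.83 (adjusted p = 0.414). Median scaling also moved the median of all tested probes to -1.28. Nppa did not pass the test under any setting tried.

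Nppb, the B-type natriuretic peptide gene, separated the microvesicle arrays. Its raw signal was 105 ± 5.23 and 79.7 ± 4.49 (SE over beads) on microvesicle arrays 1 and 2, against 149 ± 9.99 and 146 ± 7.48 on cell arrays 1 and 2. It was detected on microvesicle array 1 and on both cell arrays. On microvesicle array 2 its detection p was 0.714, so the signal there was not above background. This pattern of detection was found for 345 probes, 1.34% of the chip. In rank, Nppb was above 95.7% of probes on microvesicle array 1 but above 17.3% on microvesicle array 2, against 91.6% and 93.1% on the cell arrays.

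The normalized log2 values of Nppb were 7.72 and 4.32 in microvesicles against 6.41 and 6.81 in cells, so the groups overlapped, as they did in 34.1% of tested probes. The mean difference was -0.58 ± 1.32 (SE, n = 2 per group; limma adjusted p = 0.786), with a microvesicle SD of 2.41 against a cell SD of 0.28. That mean joins a measured value with one at background. On microvesicle array 2 Nppb has only a bound, at least 3.31-fold lower than the cell mean, set against the lowest detected value of that array. Without microvesicle array 2, Nppb stood at 1.12 ± 0.22 (limma adjusted p = 0.00794), a fit that takes its spread from the cell arrays alone and called 25.0% of tested probes higher and 44.7% lower. The sign on microvesicle array 1 depended on the scaling. It was 1.12 after quantile normalization, -0.77 with median scaling and -0.84 with no normalization.

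**Figure D2:**
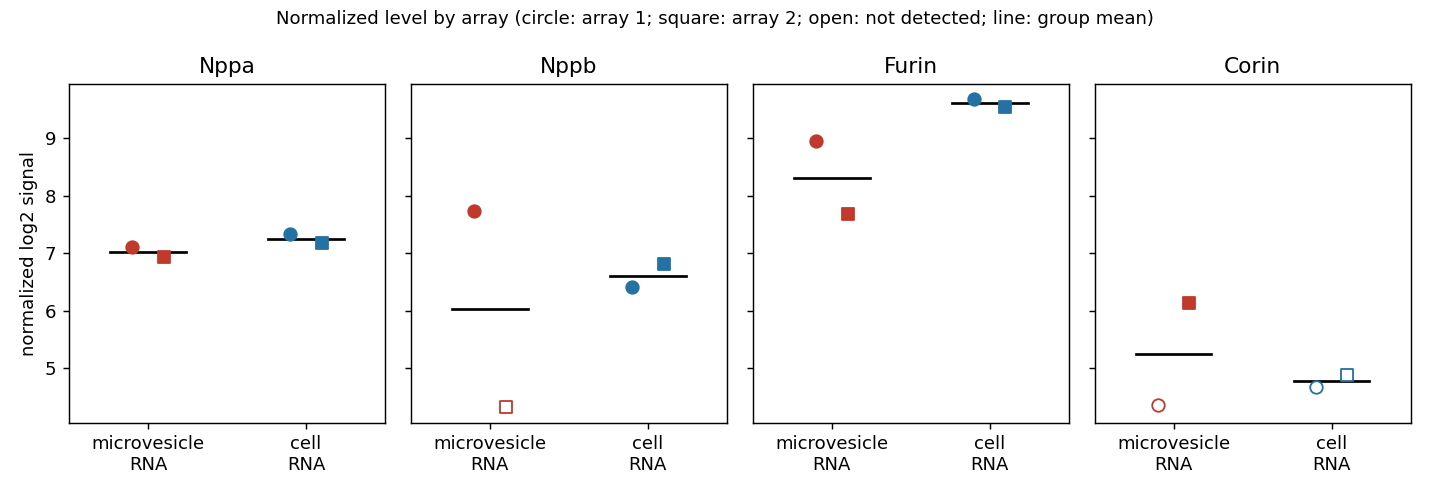
Normalized log2 signal of Nppa, Nppb, the detected Furin probe and Corin on the 2 microvesicle RNA arrays (left) and the 2 cell RNA arrays (right) of each panel, with lines at the group means. The Nppa values lie within 6.94 to 7.34, and the Nppb values of the microvesicle arrays, 7.72 and 4.32, lie on either side of the cells. The open symbols were not detected and have no measured level.

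Furin, a convertase that cuts many precursors in the Golgi, had 3 probes, of which 1 gave a signal. That probe read 177 ± 7.27 and 349 ± 11.8 (SE over beads) on microvesicle arrays 1 and 2, against 1251 ± 53.1 and 839 ± 30.9 on cell arrays 1 and 2. The groups did not overlap, and both microvesicle arrays were low. The other probes were not detected on any array, with raw signals of 55.5 to 98.4 in microvesicles and 56.4 to 65.5 in cells. The probes of Furin therefore disagreed on whether the transcript was present.

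After normalization the detected Furin probe stood at log2 values of 8.95 and 7.68 in microvesicles against 9.68 and 9.53 in cells. Both microvesicle values were below both cell values, as in 51.6% of tested probes. The difference was -1.30 ± 0.57 (SE, n = 2 per group), with a limma adjusted p of 0.241. Microvesicle array 1 stood at -0.66 and microvesicle array 2 at -1.93, where the medians over all tested probes were -0.37 and -1.30. With median scaling Furin was lower by 2.44 ± 0.50 (limma adjusted p = 0.0199), a setting that called 42.6% of tested probes lower and 0.181% higher. With no normalization it was lower by 2.37 ± 0.58 (limma adjusted p = 0.0336), where 36.5% of tested probes were called lower and 0.129% higher. With chip as a block it was lower by 0.66 ± 0.17 (limma adjusted p = 0.0189), where 44.7% of tested probes were called lower. Without microvesicle array 1 it was lower by 1.93 ± 0.17 (limma adjusted p = 0.000212), where 70.1% of tested probes were called lower and 17.3% higher. The sign of Furin was negative under all 16 alternatives. Those that change only the filter, the variance trend or the replicate block leave the difference as it was, so they could not change the sign. Fewer microvesicles that carry a transcript and fewer copies in each cannot be told apart here.

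Corin, the membrane protease that activates the atrial peptide precursor on the heart cell surface, was not detected in the cells. Its raw signal was 59.2 ± 3.0 and 181 ± 7.38 (SE over beads) on microvesicle arrays 1 and 2, against 68.5 ± 3.65 and 70.7 ± 3.93 on cell arrays 1 and 2. The detection p of the cell arrays was 0.124 and 0.0539. Corin was thus seen on microvesicle array 2 alone, which holds for 3166 probes, 12.3% of the chip. Detected on 1 RNA array, it was outside the test, which took probes detected on at least 2 of the 4. Its mean log2 value was 5.25 in microvesicles and 4.77 in cells. No fold is given, since the microvesicle mean did not exceed the mean of the lowest detected levels of the cell arrays. These were log2 values of 5.18 on cell array 1 and 5.38 on cell array 2.

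Pam, the amidating enzyme of atrial granules, was not detected on any array. Its raw signal was 60.1 and 96.9 on microvesicle arrays 1 and 2, against 66.7 and 74.2 on cell arrays 1 and 2. The detection p was lowest on cell array 2, at 0.0251, so that Pam passed there at a threshold of 0.05 and not at 0.01. A single probe stands for this gene.

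The granins were at background throughout. Chga, which encodes chromogranin A, had 3 probes with raw signals of 59.0 to 104 in microvesicles and 51.4 to 68.9 in cells. Its lowest detection p was 0.0326, for 1 probe on microvesicle array 2. Chgb, for chromogranin B, read 66.1 and 95.9 on microvesicle arrays 1 and 2, against 68.7 and 65.6 on cell arrays 1 and 2. Scg2, for secretogranin II, read 64.8 and 102 on the microvesicle arrays, against 61.6 and 48.6 on the cell arrays. Microvesicle array 2 also had the highest background, with a signal at a detection p of 0.5 of 83.9, against 60.3 to 61.5 on the other RNA arrays. Levels of these genes can be told only above the weakest detected probes, which read 79.1 to 109.8 on the RNA arrays.

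The microvesicle DNA array detected none of the 12 probes (0 of 12, against 1.33% of all probes on that array, where the threshold alone passes a share of 0.01). Raw signals ran from 56.1 to 89.2, and the lowest detected probe of that array read 93.5. Nppa read 86.6 ± 4.33 and Chgb 89.2 ± 4.95 (SE over beads). Their deposited detection p was 0.0576 and 0.0313, above the threshold. In the authors' processed values, which carry no detection call of their own, Nppa was at 124 on the DNA array, beside 118 and 106 on the microvesicle RNA arrays and 138 and 123 on the cell arrays. Chgb was at 245 on the DNA array, beside 7.87 and 6.55 on the microvesicle RNA arrays and 9.01 and 7.12 on the cell arrays. By raw signal, Nppa was above 94.3% and Chgb above 96.5% of probes on the DNA array without being detected.

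In the test of microvesicle against cell RNA, 3 of the 12 probes entered, 1 each of Nppa, Nppb and Furin. None passed limma's threshold in either direction (0% of all 3878 tested probes were called higher and 0% lower). At an unadjusted p under 0.05, 0 of the 3 passed, against 5.52% of tested probes higher and 23.2% lower. In the plot of settings, Nppb turned positive without microvesicle array 2. Furin passed with median scaling, with no normalization and in the fits that rest on 1 microvesicle array. Of those fits, chip as a block and leaving out microvesicle array 2 are the same.

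**Figure D3:**
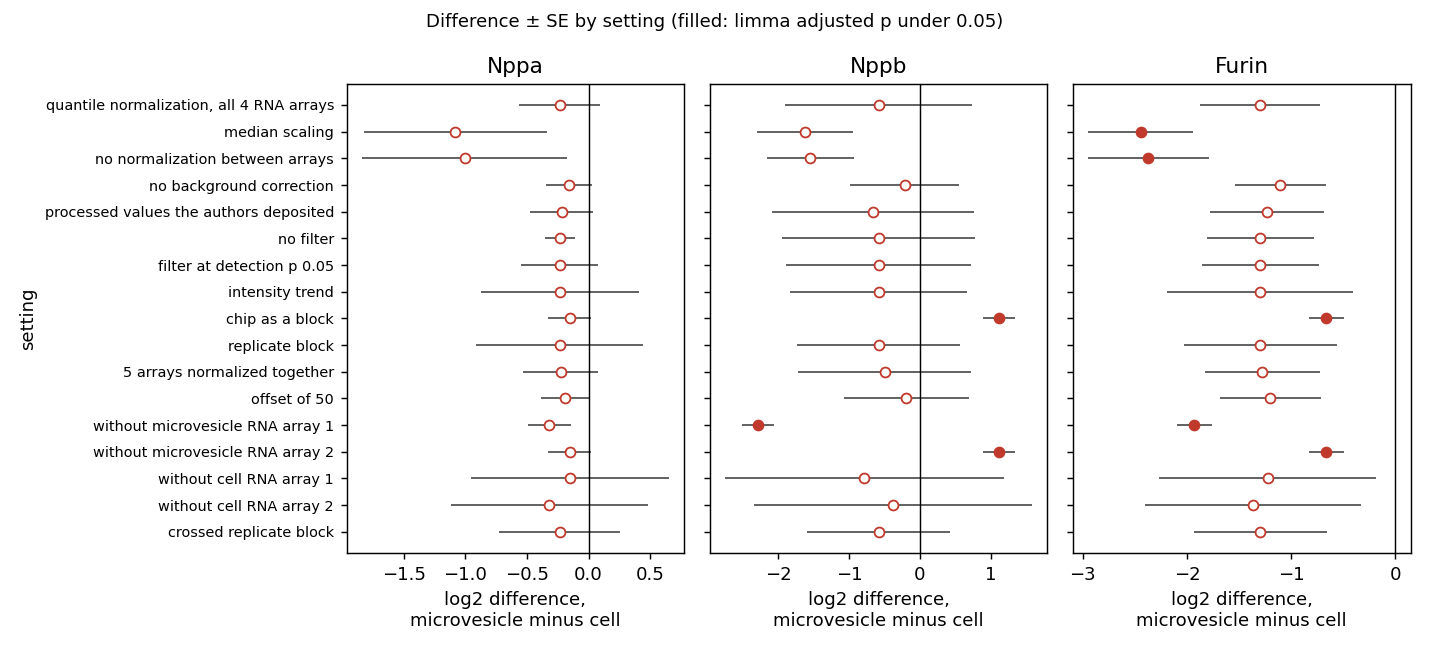
Difference of microvesicle minus cell RNA (log2, with SE) for Nppa, Nppb and Furin under each setting. Filled points passed a limma adjusted p of 0.05. Nppa is open in every row, Nppb is filled at 1.12 and at -2.28 (where -2.28 rests on an array on which it was not detected), and Furin lies below 0 throughout.

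Genes with levels most like those of the 3 tested members were sought by Euclidean distance of log2 values over the 4 RNA arrays, among 3122 other genes. Nearest to Nppa were Acot7 (distance 0.43), Uxt (0.48) and Smc1a (0.50). Nearest to Nppb were Ehd1 (0.32), Chmp7 (0.46) and Pwwp2b (0.52). Chosen by these same values, all 3 share its pattern. They stood higher on microvesicle array 1 than on either cell array and, at log2 values of 4.41 to 4.62, lower on microvesicle array 2. Nearest to Furin were Tpm1 (0.35), Xpnpep1 (0.47) and Tmem38b (0.47). With 4 arrays this measure describes a shared level and pattern only.

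Other genes of the pathway were followed by role. Of the tested probes, 27.1% were above background in both cell samples but in no microvesicle RNA sample. Such probes passed the filter only through the cells, so that their lower values follow from the choice, and a fold given for them describes and supports nothing. Galnt1, Pcsk7, Pde2a, Vti1a and Tbx5 are among them. Over all tested genes, both microvesicle values were under both cell values in 50.3% and over them in 14.9%. Among 14 measured convertases and peptide-modifying genes, 5 were tested, 0 were called, and for 3 both microvesicle values were under both cell values, near that share. Galnt1 and Pcsk7 are among these 3, so this count follows in part from the filter. The median difference was -1.22 (-0.84 over all tested genes), and -0.30 without microvesicle array 2. The value of -1.22 is that of Pcsk7 itself, so this median only describes. The copper chaperone gene Atox1, which passes copper to the pump that loads copper enzymes of the secretory route, read 2171 and 408 on microvesicle arrays 1 and 2, against 9757 and 7979 on cell arrays 1 and 2. Its normalized difference was -0.30 on microvesicle array 1 and -4.93 on microvesicle array 2. Galnt1 and Galnt2 attach the first sugar of mucin-type chains to proteins. The tested Galnt1 probe was not detected in microvesicles. It was at least 2.99-fold lower than the cell mean on microvesicle array 2 and has no bound on microvesicle array 1. The tested Galnt2 probe differed by -0.41 ± 0.49. Each of these genes also had a probe detected on microvesicle array 2 alone, at 179 for Galnt1 and 645 for Galnt2, so their probes disagreed. The convertase Pcsk7 was detected on both cell arrays and on neither microvesicle array. The protease gene Mbtps1 differed by -0.85 ± 0.82.

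Peptide cargo other than the natriuretic peptides was not seen. Of 19 measured genes of other peptide hormones, 0 were detected on any RNA array, where 65.5% of all named genes were undetected. Of 9 markers of neuroendocrine and chromaffin cells 7 were undetected, near that share. The exceptions were Uchl1 and Ddc, both on both cell arrays. Th and Dbh, which define chromaffin cells, were among the undetected. The summed background-corrected signal of the 9 markers was 452 and 129.8 on microvesicle arrays 1 and 2, against 550.3 and 665 on cell arrays 1 and 2, and its part in the results was not tested. Of 13 genes of natriuretic peptide receptors and cGMP signalling, 2 were tested and 0 called. Ide, a protease that degrades insulin and atrial natriuretic peptide, read 139 and 173 on microvesicle arrays 1 and 2, against 1371 and 776 on cell arrays 1 and 2, a normalized difference of -2.39 ± 0.98 (limma adjusted p = 0.219). It stood at -1.18 on microvesicle array 1 and -3.61 on microvesicle array 2. With median scaling and with no normalization Ide was called lower, as were 42.6% and 36.5% of tested probes. Pde2a, a phosphodiesterase that cGMP stimulates, was not detected in microvesicles. It was at least 2.74-fold lower than the cell mean on microvesicle array 2. On microvesicle array 1 it has no bound, since the lowest detected value of that array lay above the cell mean.

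Of 33 measured genes of granule formation and exocytosis, 10 were tested, 0 were called, and for 5 both microvesicle values were under both cell values, the share found over all tested genes. That count includes genes that passed the filter only through the cells, such as Vti1a, so it only describes. The median difference was -0.45, with -0.90 under median scaling, -0.80 without microvesicle array 1 and -0.20 without microvesicle array 2. Ica1, which acts in the budding of insulin granules, read 101 and 99.9 on microvesicle arrays 1 and 2, against 738 and 762 on cell arrays 1 and 2, and was not detected on microvesicle array 2. Its normalized difference was -1.52 on microvesicle array 1, and on microvesicle array 2 it was at least 19.2-fold lower than the cell mean. The vesicle fusion protein Vamp3 differed by 0.67 ± 0.57 and turned to -0.51 with median scaling. Vamp2, its relative in regulated secretion, differed by -0.53 ± 0.33, with 1 of the 2 microvesicle arrays not above background. The granule GTPase gene Rab3d stood at 0.04 ± 0.69, and at -0.91 with median scaling. Syt11 differed by -0.36 ± 0.48. The Golgi fusion protein gene Vti1a was undetected in microvesicles. It was at least 1.19-fold lower than the cell mean on microvesicle array 1 and at least 3.69-fold lower on microvesicle array 2.

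**Figure D4:**
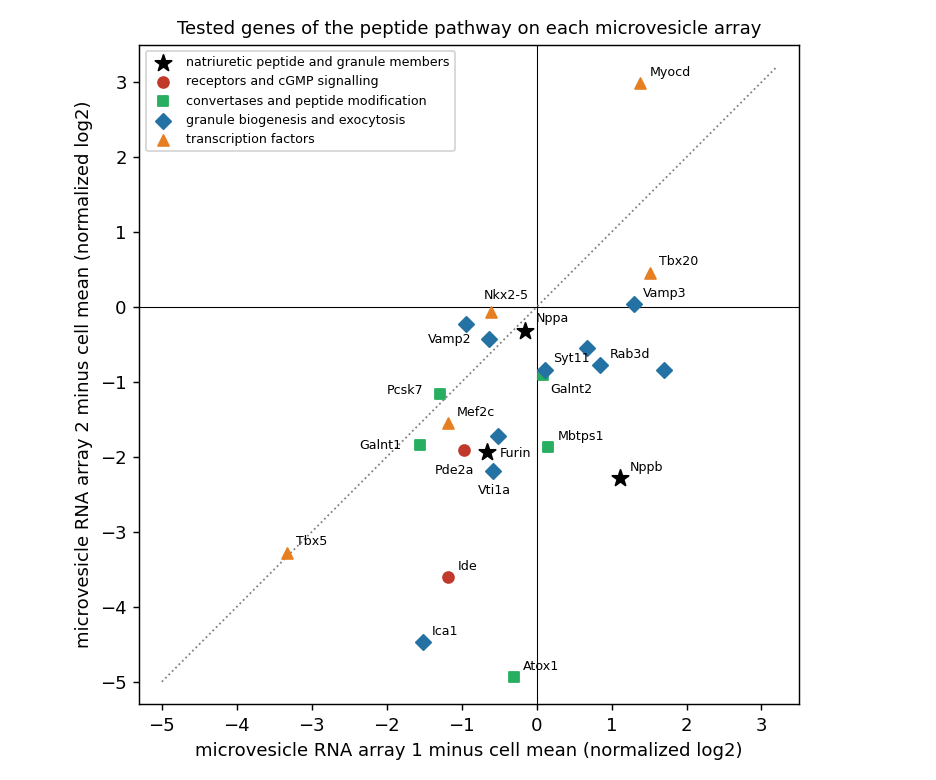
Normalized log2 difference from the cell mean on microvesicle RNA array 1 (horizontal) and microvesicle RNA array 2 (vertical) for the tested genes of each list, with the dotted line marking equal differences. Nppa lies near 0 on both axes, Nppb at 1.12 and -2.28, and Furin at -0.66 and -1.93. A probe not detected on an array is drawn at its background value there, as Nppb and Ica1 are on array 2.

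Of 10 transcription factors known to act on Nppa, 5 were tested and 0 were called. For 3 of them both microvesicle values were under both cell values, and for 2 they were over them (50.3% and 14.9% over all tested genes). Tbx5, a T-box activator, was detected on neither microvesicle array. It was at least 2.34-fold lower than the cell mean on microvesicle array 1 and at least 7.28-fold lower on microvesicle array 2. These folds, and its place among the 3, only describe, since Tbx5 passed the filter through the cells alone. The homeobox factor gene Nkx2-5 differed by -0.34 ± 0.38 and Mef2c by -1.37 ± 0.40, neither detected on microvesicle array 1. Mef2c had other probes detected on microvesicle array 2 alone, at 511 and 245. Myocd, the cofactor of serum response factor, differed by 2.18 ± 0.69 (limma adjusted p = 0.156), with another tested probe at -1.17. Tbx20 differed by 0.99 ± 0.52, and by 0.54 with median scaling. Its raw signal was 88.4 and 173 on microvesicle arrays 1 and 2, against 88.8 and 86.2 on cell arrays 1 and 2. On microvesicle array 1 its raw signal thus lay within the range of the cells and near background. All 5 factors were detected on both cell arrays.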

How the data were processed

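The authors deposited a raw table that, per the file headers, gives each probe's mean bead intensity on a linear scale, its standard error, a detection p-value and the count of beads. Per the submitters' processing notes, BeadStudio 3.3 was used. Another table holds processed intensity values that the authors deposited, some below 0, with a scaling not given in the sources used here. It served as an alternative.

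The 4 RNA arrays were background-corrected and quantile-normalized with neqc (limma 3.58.1, R 4.3.3, offset 16, negative controls inferred from detection p-values). Probes detected on at least 2 RNA arrays at a detection p under 0.01 (3878) entered a two-sided limma test (lmFit, eBayes), and p-values were adjusted over all of them (Benjamini-Hochberg, threshold 0.05). The test was also run on simulated data with the same spread on every array. The real microvesicle and cell arrays differ in spread, so that run checks the code only. A gene was represented by its brightest tested probe. A probe undetected on both arrays of a group, or on 1 array where that array is given alone, has only a bound, set against the higher of its own value and the lowest detected value of each array, and its fold is written as at least that size. The number of arrays limits the precision. The 12 probes carry 1 symbol each in the platform annotation, all unchanged in RefSeq.

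Every probe of the 8 genes is named. Of each other list, the 6 genes with the highest mean level among those detected on at least 2 RNA arrays could be named. The members and lists were chosen with earlier results of these data known. Same-numbered arrays were not paired, as the labels give no shared source and their deviations correlated at -0.24 across probes. Alternatives covered scaling, background correction, filter, offset, variance trend, chip, replicate number and each array left out.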

Additional observations from a re-analysis of the deposited data

How the results depend on the processing

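Nppa kept its sign and missed the threshold under all 16 alternatives, between -1.08 and -0.15. The filter, variance trend and replicate block settings leave the difference as it was and could not change its sign. The count of all probes called, 0 as reported, was 1658 with median scaling (7 higher, 1651 lower), 1421 with no normalization (5 and 1416), 499 with the authors' processed values (35 and 464), 179 with no filter (16 and 163), 687 with an intensity trend (10 and 677) and 2703 with chip as a block (968 and 1735). Leaving out 1 RNA array gave 0 to 3391 (0 to 968 higher, 0 to 2720 lower). Of the 12 probes, 1 was called with median scaling and 1 with no normalization (Furin lower in both), 2 with chip as a block (Nppb higher, Furin lower), and 0 to 2 on leaving out an array. Chip 2 held no cell array, so the chip block equals leaving out microvesicle array 2. Under it Nppb turned to 1.12, Galnt2 to 0.088, Mbtps1 to 0.16 and Syt11 to 0.11, and leaving out 1 array gave ranges of -2.28 (microvesicle array 2 alone, where it was not detected) to 1.12 for Nppb, -0.90 to 0.088 for Galnt2, -1.87 to 0.16 for Mbtps1 and -0.83 to 0.11 for Syt11. Vamp3 turned to -0.51 with median scaling and -0.44 with no normalization, and Rab3d to -0.91 and -0.83, with -0.77 to 0.85 on leaving out 1 array. Ide and Ica1 were called lower with median scaling and with no normalization, where 42.6% and 36.5% of all tested probes were called lower. Calls of Tbx5, Galnt1 and Pde2a are not counted, since these probes passed the filter only through the cells. The cause was not tested. The replicate block called 0 probes, with Nppa at -0.23 ± 0.68 and Nppb at -0.58 ± 1.15, and changed no call. Pairing the numbers crosswise, chosen after seeing the data, also called 0. The number of the 12 probes detected on any RNA array was 4, with 6 at a detection p of 0.05 and 4 at 0.001, where Nppa lost its call on microvesicle array 1. Signals within about 1.5 times background, such as Nppa on microvesicle array 1, are limited by background noise.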

Other observations

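Several genes of the pathway lists were bright on microvesicle RNA array 2 and at background on the other RNA arrays, as Corin was. They were picked out after their values were seen, and probes with this pattern make up 12.3% of the chip. Npr3, the clearance receptor that removes natriuretic peptides, read 63.2 and 1322 on microvesicle arrays 1 and 2, against 61.5 and 64.8 on cell arrays 1 and 2. Cyb561, the granule membrane protein that supplies electrons for ascorbate inside granules, a cofactor that peptide amidation needs, read 76.3 and 2796, against 64.3 and 63.3. Rab2a, a GTPase with a part in granule formation in the worm, read 60.8 and 501, against 61.1 and 63.9. Srf, the factor that binds CArG boxes, read 69.0 and 498, against 73.3 and 71.3. With 1 array showing each of them, none has a replicate, and whether they reflect that preparation or its labelling was not tested.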
